A study of Saccharomyces cerevisiae with 8 samples.

Results

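The ribose methylation landscape of ribosomal RNA in wild-type budding yeast was described at the 55 annotated sites of 18S and 25S rRNA, 18 in 18S and 37 in 25S. The members were the sites listed in the authors' overview of the series, read in the group labelled WT alone, and they are 55 of 5196 nucleotides of both rRNAs. WT had 2 libraries, replicates A and B, of 8 in the series, and the series design states biological duplicates. The labels give no strain background and do not say whether the WT cultures held glucose or galactose. Whole cell RNA from exponentially growing cells was partly cleaved in alkali, and fragments of 20 to 40 nt were purified and read on an Ion Proton sequencer, per the labels. The other groups of the series were not used.

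Ribose 2′-O-methylation adds a methyl group to the sugar of a nucleotide. In yeast rRNA nearly all of these groups are placed by box C/D small nucleolar ribonucleoproteins, in which a guide RNA pairs with the rRNA and positions the methyltransferase Nop1 (fibrillarin in human). Each guide stretch selects the nucleotide paired with the fifth base upstream of box D or D′ of the small nucleolar RNA. A few sites are methylated by stand-alone protein enzymes, such as Spb1. RiboMeth-seq reads the mark because the methyl group blocks alkaline cleavage on its 3′ side, so that few fragments end at a methylated nucleotide or start just after it. The score divides the read ends at a nucleotide by the level expected from its 6 neighbours on each side and subtracts that ratio from 1, and it is read as the fraction of molecules that carry the methyl group. Guide assignments below are general knowledge of yeast small nucleolar RNAs, since the files name none.

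The 8 sites with the lowest scores are shown with 8 nt on each side, because they are the sites called partly methylated below. Sequences are the RNA letters of the deposited table for RDN18-2 and RDN25-1, 5′ to 3′, numbered from the first nucleotide of the mature rRNA. Capitals mark annotated methylated nucleotides.
Um2347 (25S nucleotides 2339 to 2355): cuaucuacUaucuagcg
Cm2948 (25S nucleotides 2940 to 2956): aacgugAgCuggguuua
Am436 (18S nucleotides 428 to 444): aggcgcgcAaauuaccc
Cm663 (25S nucleotides 655 to 671): caaggaguCuaacgucu
Am420 (18S nucleotides 412 to 428): auCcaaggAaggcagca
Um898 (25S nucleotides 890 to 906): cgucgaauUuggguaua
Cm2197 (25S nucleotides 2189 to 2205): uuucugccCagugcucu
Gm1572 (18S nucleotides 1564 to 1580): ucuucaacGaggaauuc

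A second set shows stretches that hold several methylated nucleotides close together, because close sites share the neighbours from which the score is computed, and because these pairs are compared below. Capitals again mark annotated sites.
Am649 and Cm650 (25S nucleotides 641 to 658): cuugaaacACggaccaag
Gm805, Am807 and Am817 (25S nucleotides 797 to 825): ugggacccGaAagauggugaAcuaugccu
Cm1437, Am1449 and Gm1450 (25S nucleotides 1429 to 1458): gugcagauCuuggugguaguAGcaaauauu
Am2280, Am2281 and Gm2288 (25S nucleotides 2272 to 2296): gguagccaAAugccucGucaucuaa
Gm2791 and Gm2793 (25S nucleotides 2783 to 2801): ugaggcuaGaGgugccaga
Um2921 and Gm2922 (25S nucleotides 2913 to 2930): cguuggauUGuucaccca
Am2946, Cm2948 and Cm2959 (25S nucleotides 2938 to 2967): ggaacgugAgCuggguuuagaCcgucguga

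Read ends on both rRNAs came to 12211596 in replicate A and 10997180 in replicate B, with a median of 1328 and 1099.5 read ends per nucleotide. The level expected from the neighbours of an annotated site ranged from 253 read ends (Cm1639) to 14123 (Cm1437) in replicate A and from 223 (Am2640) to 7102 (Am28) in replicate B. The 95% exact Poisson interval of a score, which takes the expected level as fixed and covers counting error only, had a median width of 0.0229 in replicate A and 0.0238 in replicate B. It was widest at Um2347, at 0.144 and 0.131. Read ends of amplified fragments without molecular identifiers are not independent molecules.

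Most annotated sites had high scores, though the score was not calibrated here against RNA of known methylation. A mean score of at least 0.9, called full methylation here, was reached at 47 of the 55 sites, and 1.04% of all 5172 nucleotides with 6 neighbours on each side reached it. The median over sites was 0.968 in replicate A and 0.967 in replicate B. Of the 47 sites, 9 had a mean score of at least 0.98, 30 lay between 0.95 and 0.98, and 8 between 0.9 and 0.95. Below the threshold, 6 sites lay between 0.8 and 0.9 and 2 below 0.8. If each score is read as a fraction of molecules, the scores sum to 16.9 ± 0.157 methyl groups per 18S molecule over its 18 sites and to 34.6 ± 0.0594 per 25S molecule over its 37 sites (SD, n = 2 here and below). Among the 5117 unannotated nucleotides the median score was 0.155, the 95th percentile 0.640 and the 99th percentile 0.778. The distributions overlapped, since Um2347 and Cm2948 lay below that 95th percentile, and 7 unannotated nucleotides (0.137%) had a mean score of at least 0.9.

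**Figure D1:**
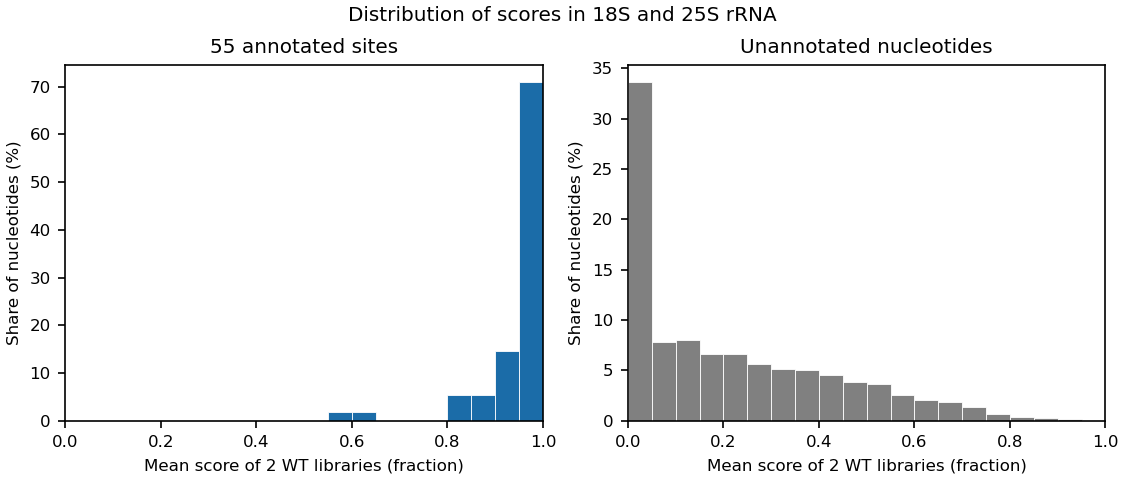
Share of nucleotides (%, vertical axis) by mean score of both WT libraries (fraction, horizontal axis, in bins of 0.05), for the 55 annotated sites on the left and the unannotated nucleotides on the right. The annotated sites pile up above 0.9, with 2 below 0.8, while the unannotated nucleotides have a median of 0.155.

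The loss of read ends at annotated sites was tested against the neighbours over all 5172 nucleotides with edgeR's quasi-likelihood test, with Benjamini-Hochberg adjustment over all of them. All 55 sites had fewer read ends than expected, with edgeR adjusted p between 0.0109 and 0.0495 (Gm1572), and 8.53% of all nucleotides passed in that direction. The median log2 of observed over expected read ends was -4.75 at the annotated sites and -0.19 over all nucleotides. Cleavage also differs by base and by structure, so passing this test marks protection and does not by itself mark a methyl group. The call at Gm1572 was lost with annotated neighbours left out of the expected level (edgeR adjusted p = 0.0503).

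The dip in read ends was 1 nt wide at sites that stand alone. Over the 33 sites with no other annotated site within 6 nt, the median ratio of observed to expected 3′ ends was 0.0454 in replicate A and 0.0308 in replicate B at the site. For 5′ ends it was 0.0473 and 0.039. One nucleotide farther 3′ the ratios were back at 0.845 and 0.657 for 3′ ends and at 0.881 and 0.866 for 5′ ends. Both kinds of end dipped at the annotated nucleotide in each library. By the chemistry above, missing 5′ ends would begin at the nucleotide just 3′ of the site. The deposited 5′ counts thus appear to be placed 1 nt upstream of the read start, which was not tested.

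**Figure D2:**
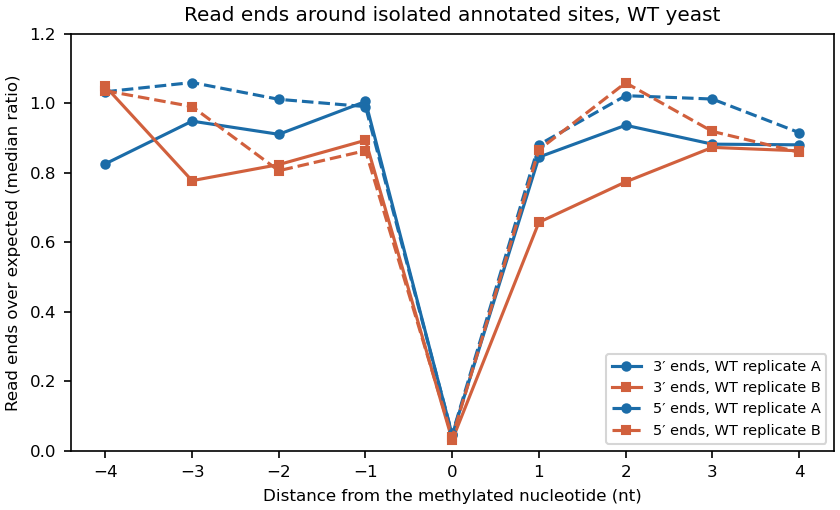
Median ratio of read ends to the expected level (vertical axis) against distance from the methylated nucleotide (nt, horizontal axis) at the 33 annotated sites without another site within 6 nt, as lines for 3′ ends (solid) and 5′ ends (dashed) of WT replicates A and B. All lines drop to at most 0.0473 at distance 0 and are at least 0.657 at every other distance shown.

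The lowest score was at Um2347 of 25S, guided by snR65, with 0.563 in replicate A and 0.604 in replicate B (mean 0.584 ± 0.0289). Cm2948 of 25S, guided by snR69 and lying in the peptidyl transferase region, had 0.582 and 0.651 (mean 0.616 ± 0.0485). Both libraries put these 2 sites far below all others, and their difference from each other was smaller than the SD of Cm2948. The gap of 0.207 from Cm2948 up to Am436 was the widest between neighbours in the order of scores.

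The other 6 partly methylated sites lay between 0.823 and 0.88. Am436 of 18S, guided by snR87, had 0.842 and 0.804, and Cm663 of 25S, guided by snR58, had 0.844 and 0.825. Am420 of 18S, a target of snR52, had 0.876 and 0.809. Um898 of 25S, a target of snR40, had 0.849 and 0.873. These 4 sites, like Um2347 and Cm2948, were below 0.9 in both libraries.

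The remaining partly methylated sites rested on 1 library. Gm1572 of 18S, guided by snR57, had 0.953 in replicate A and 0.806 in replicate B, the largest difference between libraries at any site (0.147). Cm2197 of 25S, guided by snR76, had 0.92 and 0.816. Both were above 0.9 in replicate A alone, and at both the 95% counting intervals of the libraries lay apart. On the other side of the threshold, the lowest sites called fully methylated were Am100 (0.934 and 0.891, mean 0.912), Gm908 (0.904 and 0.928, mean 0.916), Am619 (0.914 and 0.922, mean 0.918) and Cm2959 (0.965 and 0.887, mean 0.926). Am100 and Cm2959 fell under 0.9 in replicate B. The 8 partly methylated sites are therefore 6 that stayed below 0.9 in each library and 2 that crossed it. With 2 neighbours on each side in place of 6 the number was again 8, but Gm1572 was fully (0.905) and Gm2791 partly methylated (0.899).

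**Figure D3:**
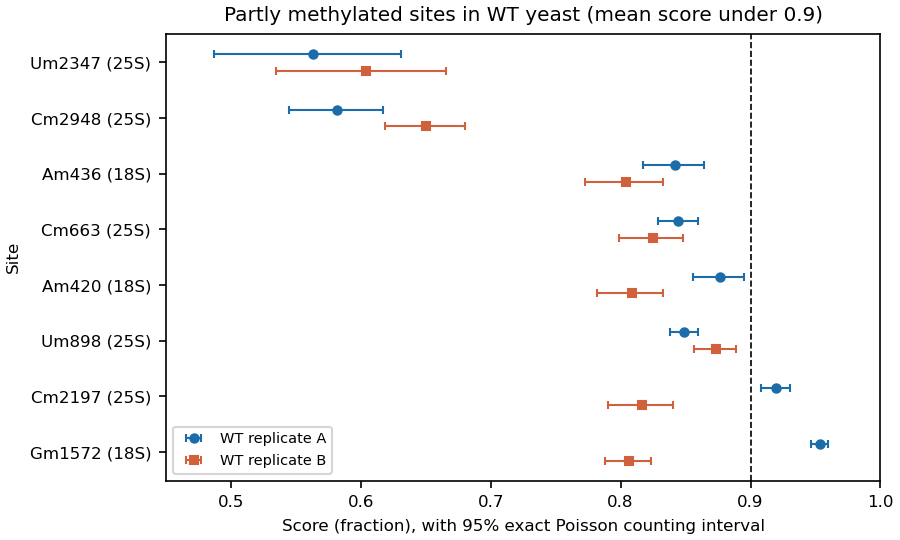
Score (fraction, horizontal axis, starting at 0.45) of the 8 sites with a mean below 0.9, with points for WT replicates A and B and bars for the 95% exact Poisson counting interval. Um2347 and Cm2948 lie between 0.563 and 0.651, and Gm1572 and Cm2197 are the sites where replicate A lies above the dashed line at 0.9 and replicate B below it.

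The highest score was at Um2921 of 25S, with 0.994 and 0.996 (mean 0.995 ± 0.00151), from 13 and 6 read ends against 2116 and 1495 expected. It is a target of snR52 and lies in the loop of the peptidyl transferase centre that binds the end of the A-site tRNA. Its neighbour Gm2922, methylated by the protein enzyme Spb1 and not by a guide RNA, had 0.98 and 0.984 (mean 0.982 ± 0.0032). Cm1639, in the decoding region of 18S and guided by snR70, had 0.984 and 0.994 (mean 0.989 ± 0.00663), from 4 and 2 read ends. Am2946, guided by snR71, had 0.989 and 0.984, and Am649, guided by U18, had 0.989 and 0.98. Neighbours in the order of these 5 sites differed by less than the larger SD of the pair. Over the whole order of 55 sites, 2 of the 54 steps between neighbours were larger than the SD of either site, those from Cm2948 to Am436 and from Gm2288 to Cm1437.

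**Figure D4:**
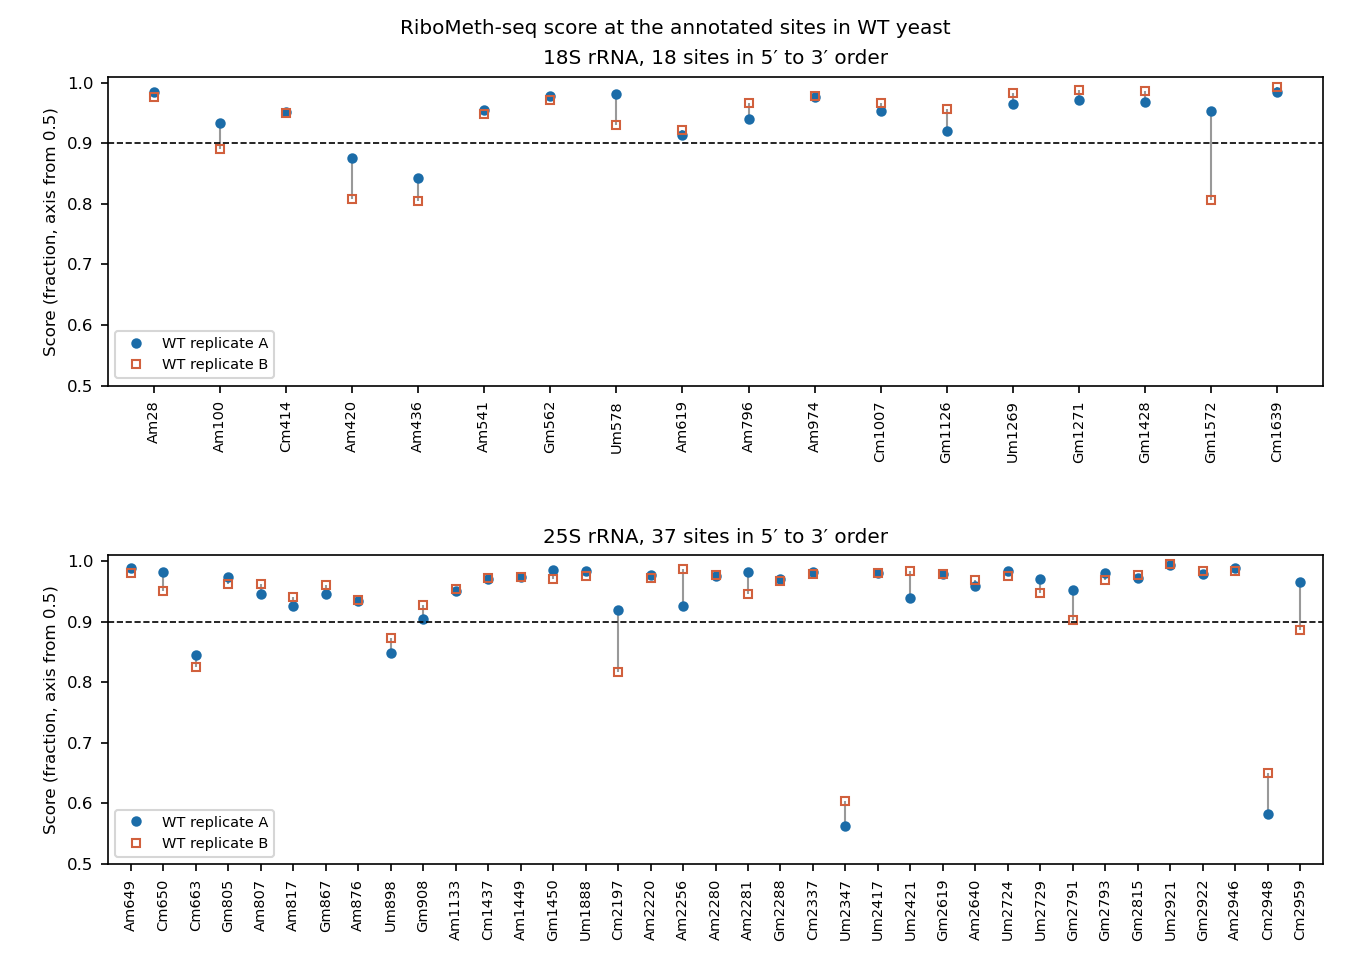
Score (fraction, vertical axis, starting at 0.5) at each annotated site in 5′ to 3′ order, 18S above and 25S below, with filled circles for WT replicate A and open squares for WT replicate B. The dashed line marks 0.9. Most pairs of points overlap above it, and Um2347 and Cm2948 lie lowest.

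In 18S, 15 of 18 sites were fully methylated, with a median of 0.954 in replicate A and 0.962 in replicate B. In 25S, 32 of 37 were fully methylated, with medians of 0.971 and 0.969. The lowest 18S site, Am436 at 0.823, was well above the lowest 25S sites. The 18 sites of 18S lie in 1800 nt and the 37 of 25S in 3396 nt, and the median distance between consecutive sites was 72.0 nt in 18S and 21.5 nt in 25S. No test was made between groups of sites here or below, since sites of the same libraries are not replicates.

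Along 25S the sites were unevenly placed. Of 6 stretches of equal length, the first, from nucleotide 1 to 566, held 0 annotated sites, and the fifth, from 2265 to 2830, held 14. The 5′-most site was Am649, and the widest distance between consecutive sites was that between Gm1450 and Um1888, 438 nt. The stretch from 567 to 1132 held 10 sites and had the lowest median, 0.944, with Cm663 and Um898 partly methylated and Gm908, Am817 and Am876 at 0.916, 0.934 and 0.936. The stretch from 2831 to 3396 held 5 sites, with the highest median, 0.982, beside the partly methylated Cm2948. Medians of the other stretches with sites were 0.973, 0.965 and 0.972 from 5′ to 3′. In 18S, 3 stretches of equal length had, from 5′ to 3′, medians of 0.952, 0.953 and 0.977 over 8, 5 and 5 sites, and Am420 and Am436 are in the first.

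Adenosines were the most frequent methylated base. They made up 20 of 55 sites, or 36.4%, against 26.6% of all nucleotides of both rRNAs, and 1.45% of all adenosines were annotated. Uridines made up 10 sites, or 18.2%, against 26.5% of nucleotides. Guanosines held 15 sites (27.3%, against 27.4% of nucleotides) and cytidines 10 (18.2%, against 19.4%). Of guanosine sites 14 of 15 were fully methylated, all but Gm1572, with a median of 0.972 in replicate A and 0.970 in replicate B. Uridine sites had medians of 0.975 and 0.976, with 8 of 10 fully methylated. Adenosine sites had medians of 0.954 and 0.965 with 18 of 20 fully methylated, and cytidine sites 0.959 and 0.951 with 7 of 10. In 25S all 12 adenosine and all 10 guanosine sites were fully methylated, and the 5 partly methylated sites were the cytidines Cm663, Cm2197 and Cm2948 and the uridines Um898 and Um2347. In 18S the partly methylated sites were purines: Am420, Am436 and Gm1572. Among unannotated nucleotides, guanosines had a median of 0.236, cytidines 0.171, adenosines 0.132 and uridines 0.102. The nucleotide just 3′ of a site, whose bond to the site is the protected one, was a guanosine at 18 sites (32.7%, against 27.4% of all nucleotides) and an adenosine at 12 (21.8%, against 26.6%).

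Annotated sites often lie side by side. There were 11 pairs within 6 nt, covering 22 sites, of which 20 were fully methylated (median 0.974), against 27 of the 33 sites without such a neighbour (median 0.953). In 4 of the 11 pairs a single guide directs both sites. U18 gave 0.985 at Am649 and 0.966 at Cm650. U24 gave 0.974 at Am1449 and 0.978 at Gm1450. The adjacent adenosines Am2280 and Am2281, both guided by snR13, had 0.976 and 0.964, and Gm2791 and Gm2793, both guided by snR48, had 0.928 and 0.975. At each of these 4 pairs both members were high, and the largest difference was at snR48.

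Neighbours with different guides were as high in most pairs. Um1269 and Gm1271 of 18S had 0.974 and 0.98, Gm805 and Am807 had 0.968 and 0.954, Um2417 and Um2421 had 0.981 and 0.962, and Um2724 and Um2729 had 0.98 and 0.959. The exceptions were Cm414 and Am420, with 0.951 and 0.842, and Am2946 and Cm2948, with 0.987 and 0.616. Cm414 is guided by U14, a small nucleolar RNA that is also needed for cleavage of the 18S precursor. A protected neighbour lowers the level expected at a site and with it the score. Leaving annotated neighbours out of the expected level raised the score at all 22 sites of these pairs, by at most 0.0165 (Cm2948), and moved 0 sites across 0.9.

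By origin of the guide, the 8 sites of guides encoded in introns were all fully methylated, where 85.5% of all 55 sites were. Their scores ran from 0.954 at Am807 to 0.985 at Am649 (median 0.975). They include the 5 sites of U18 and U24. Sites of guides from polycistronic clusters were fully methylated at 17 of 19 (median 0.953), with Cm2197 and Gm1572 below. Sites of guides with their own gene were fully methylated at 20 of 26 (median 0.962), and this group held the 6 sites that were below 0.9 in each library. Gm562 of 18S, for which no guide is assigned here, had 0.979 and 0.971.

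Of 11 guides with several sites, 8 had sites within 0.05 of each other. U24 had its 3 sites within 0.00651, at Cm1437, Am1449 and Gm1450, and snR67 had Um2724 and Gm2619 at 0.98 and 0.979. The targets of snR60, Am817 and Gm908, were both near the threshold, at 0.934 and 0.916. The widest differences were between targets in different rRNAs. For snR52 Um2921 of 25S had 0.995 and Am420 of 18S 0.842, a difference of 0.152 against an SD of 0.048 at Am420. For snR40 Gm1271 of 18S had 0.98 and Um898 of 25S 0.861, a difference of 0.119. For snR47 Am2220 of 25S had 0.974 and Am619 of 18S 0.918. Both snR52 and snR40 thus had 1 fully and 1 partly methylated target.

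Scores were also taken from 3′ ends and 5′ ends apart, since both report the same protected bond. From 3′ ends 46 sites had a mean of at least 0.9, and from 5′ ends also 46, with 42 sites in both sets. The other sites were 4 above 0.9 from 3′ ends alone, 4 from 5′ ends alone and 5 from neither. The median score was 0.967 from 3′ ends and 0.967 from 5′ ends, and the median absolute difference between the ends was 0.0205. The expected level was lower for 3′ ends than for 5′ ends at the median site, at 447 against 632 in replicate A and 325 against 666 in replicate B.

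A test of the ends against each other, over 4984 nucleotides with edgeR's quasi-likelihood test and the library as a block, passed at 6 of the 53 sites tested (11.3%), while 19.6% of all nucleotides passed. In this fit the share at annotated sites was below that over all nucleotides, but this did not hold in every setting. With limma, 6 of 53 sites passed with stronger and 7 with weaker protection from 3′ ends, against 10.4% and 9.25% of all nucleotides. With 2 neighbours on each side, 2 and 5 of 52 sites passed, against 5.68% and 5.56%. Um1888 and Gm2815 had fewer than 50 expected read ends on one side and were not tested. Positive log2 values mean relatively more 3′ ends, that is, weaker protection from 3′ ends. At 4 sites (7.55%) protection was weaker from 3′ ends, against 9.41% of all nucleotides. At 2 sites (3.77%) it was stronger, against 10.2% of all nucleotides. Few read ends remain at annotated sites, so a given difference passes less readily there. Cm1639, with 4 and 2 read ends in replicates A and B, had a log2 difference of 2.23 (edgeR adjusted p = 0.453). Um2921, with 13 and 6 read ends, had -2.26 (edgeR adjusted p = 0.195). The shares therefore cannot show whether the ends match better at annotated sites than elsewhere.

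Cm2948 differed most in score. From 3′ ends it had 0.137 and 0.0694, with 180 and 101 read ends against 209 and 109 expected. From 5′ ends it had 0.67 and 0.699, with 346 and 397 read ends against 1050 and 1317 expected. The difference was 1.51 on the log2 scale (edgeR adjusted p = 0.0361). Its mean score of 0.616 thus rests on 5′ ends, and protection at Cm2948 did not pass from 3′ ends alone (edgeR adjusted p = 0.895).

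At Am807, guided by snR39 or snR59, the 3′ score was 0.844 and 0.747 and the 5′ score 0.968 and 0.989, with a log2 difference of 3.45 (edgeR adjusted p = 0.00118). The 3′ values come from 11 and 25 read ends against 70.5 and 98.7 expected. At Gm1572 the 3′ score was 0.945 and 0.75 and the 5′ score 0.964 and 0.983 (log2 difference 2.07, edgeR adjusted p = 0.00909). That call was lost with 2 neighbours on each side (log2 difference 0.89, edgeR adjusted p = 0.313) and without the library as a block (edgeR adjusted p = 0.0636). The low total score of Gm1572 in replicate B was thus carried by its 462 3′ ends, beside 10 5′ ends. At Am2281 the 3′ score was 0.966 and 0.872 and the 5′ score 0.987 and 0.989 (log2 difference 2.52, edgeR adjusted p = 0.00491).

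The opposite direction passed at Cm2959 and Cm2197, which are 3.77% of the sites tested, against 10.2% of all nucleotides. Cm2959, guided by snR73, had 0.983 and 1 from 3′ ends and 0.962 and 0.87 from 5′ ends (log2 difference -3.28, edgeR adjusted p = 0.00514). That call was lost without the block (edgeR adjusted p = 0.0757) and with DESeq2 (adjusted p = 0.0650). The drop of Cm2959 below 0.9 in replicate B came from 204 5′ ends beside 0 3′ ends. Cm2197 had 0.987 and 0.862 from 3′ ends and 0.881 and 0.8 from 5′ ends (log2 difference -1.74, edgeR adjusted p = 0.032). With 2 neighbours on each side in place of 6 its difference was 0.51, with the opposite sign, and missed the threshold (edgeR adjusted p = 0.612). The call at Cm2197 was also lost without the block (edgeR adjusted p = 0.391) and with DESeq2 (adjusted p = 0.0733).

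Um2347, the lowest site, was unsettled between ends and libraries. Its 3′ score was 0.932 and 0.575 and its 5′ score 0.402 and 0.637, from 7 and 82 3′ ends and 140 and 64 5′ ends. The end with the higher score changed from one library to the other, and the difference between the ends did not pass (log2 difference -1.22, edgeR adjusted p = 0.183). The summed score of Um2347, 0.563 and 0.604, was closer between libraries than either end. Am2256, guided by snR63, had 0.753 and 0.986 from 3′ ends and 0.975 and 0.987 from 5′ ends (edgeR adjusted p = 0.0818). This difference passed with 2 neighbours on each side (log2 difference 2.57, edgeR adjusted p = 0.0165) and with limma (adjusted p = 0.00841). It did not pass with DESeq2 (adjusted p = 0.238) or without the block (edgeR adjusted p = 0.117). Am420 had 0.874 and 0.798 from 3′ ends and 0.892 and 0.943 from 5′ ends. Am100 had 0.948 and 0.892 from 3′ ends and 0.781 and 0.885 from 5′ ends, and Am619 had 0.952 and 0.953 against 0.868 and 0.902.

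**Figure D5:**
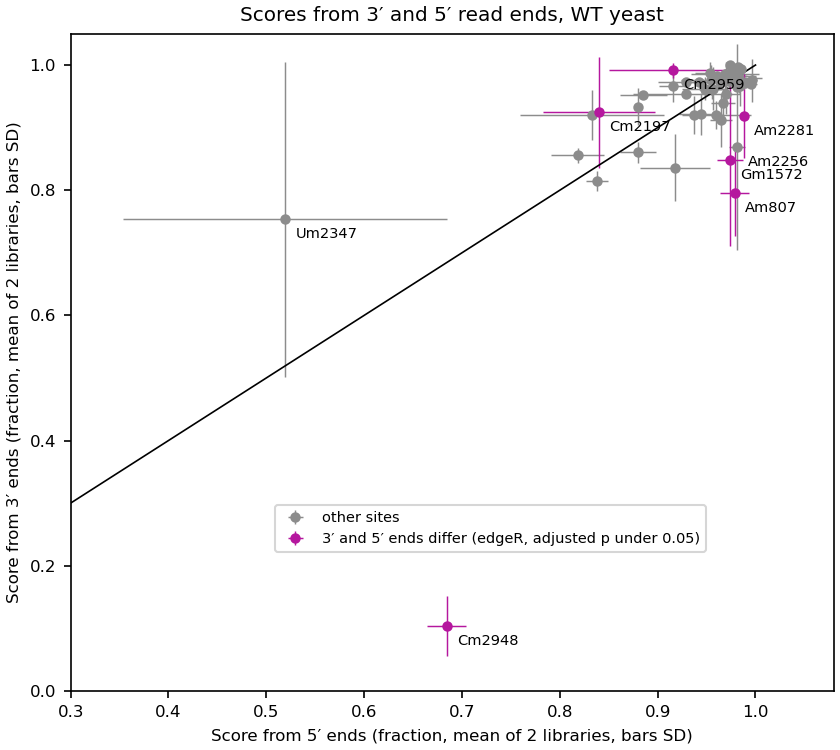
Score from 3′ ends (fraction, vertical axis) against score from 5′ ends (fraction, horizontal axis, starting at 0.3) at the 55 sites, as means of WT replicates A and B with bars for the SD. The line marks equal scores. The 6 sites at which the ends differed are coloured, and Cm2948 lies farthest from the line, with 0.103 from 3′ ends and 0.684 from 5′ ends.

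The duplicates were close at most sites. Their scores differed by a median of 0.0133, by less than 0.02 at 36 sites and by more than 0.05 at 8. Neither library was higher throughout: replicate A was higher at 27 sites and replicate B at 28. The 95% counting intervals of both libraries overlapped at 39 sites and lay apart at 16, of which 4 were partly and 12 fully methylated. At those 16 sites the spread between libraries was larger than counting error. The median SD was 0.00663 over fully methylated sites and 0.0384 over partly methylated ones. These classes come from the same scores, which cannot exceed 1, so sites near 1 have little room to spread. Gm1572 and Cm2197 were placed below 0.9 by replicate B alone, so their spread helped to class them. After Gm1572 and Cm2197, the largest differences between replicates A and B were at Cm2959 (0.965 and 0.887), Cm2948 (0.582 and 0.651) and Am420 (0.876 and 0.809). The smallest difference was at Am1449, with 0.974 in both libraries (SD 0.000108).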

How the data were processed

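RiboMeth-seq libraries of the 2 WT samples were analysed. Tools named in the submitters' processing notes are cutadapt 2.0 and Bowtie2 2.3.4.1, while how reads were mapped and filtered is not given in the sources used here. Columns of deposited counts hold reads by 5′ end, by 3′ end and by both together at every nucleotide of a library, per the file headers. The authors' score carries a percent sign in its header, but the deposited values are a fraction between 0 and 1. Recomputing it from the counts, with 6 neighbours to the left and to the right weighted between 1 and 0.5 and negative values set to 0, gave 10344 scores that differed from the deposited ones by at most 5.00e-10. The authors' overview mentions a barcode correction without marking where in the text used here, and its WT means differed from the means of both deposited scores by at most 5e-10. The WT table holds 4 further columns of per-library values, not used here.

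Groups were taken from the sample titles. Protection was tested with edgeR 4.0.16 in R 4.3.3, by the quasi-likelihood F test on summed read ends, with the logarithm of the expected level as offset and null means at that level, a mean of at least 50 expected read ends, two-sided, at an adjusted p of 0.05. Ends were compared with the library as a block and at least 50 expected on each end. Poisson intervals (95%) and summaries used Python 3.11.15 with numpy 2.4.6, scipy 1.17.1 and pandas 2.3.3. Alternatives were limma 3.58.1 on log2 ratios with 0.5 added, DESeq2 1.42.0, 2 neighbours, annotated neighbours left out, each end alone, no minimum or at least 100 expected read ends, other thresholds, no block, and each library left out. Both tests were run on simulated read ends, drawn around the expected level with the common dispersion of the protection test. That dispersion, 0.0817, was lower than the 0.125 of the test of the ends, and no result here rests on the simulation. The simulated data hold no differences in cleavage by base or structure, so they cannot show how often such differences pass. The members and site lists were chosen with earlier results of these data known. Any site may be named, with full values for partly methylated sites, the 5 highest, the 5 with the largest difference between libraries or, in each direction, between ends, and sites within 6 nt of another.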

Additional observations from a re-analysis of the deposited data

How the results depend on the processing

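The number of sites with a mean score of at least 0.9 was 47. It was 45 without replicate A, 49 without replicate B, 46 from either end alone, 53 with a threshold of 0.8 and 39 with 0.95. Of the 5117 unannotated nucleotides, 17 had mean scores from 0.8 to 0.85, 13 from 0.85 to 0.9, 7 from 0.9 to 0.95 and 0 above. Their share was not computed for 1 library, 1 end or 2 neighbours. The number of sites was again 47 with 2 neighbours, where Gm2791 fell below 0.9 and Gm1572 was above it. The median score, 0.964, was 0.967 from 3′ ends alone, 0.967 from 5′ ends alone, 0.959 with 2 neighbours, 0.965 with annotated neighbours left out, and 0.967 to 0.968 with 1 library. For 25S, 0.966, it was 0.969, 0.969, 0.959, 0.969 and 0.969 to 0.971 in the same order. For 18S, 0.955, it was 0.964 from 5′ ends alone and 0.954 to 0.962 with 1 library. Protection passed at 53 of 54 to 55 of 55 sites under all alternatives run. The share of all nucleotides passing in that direction varied more, from 8.27% (3′ ends alone) to 31.8% (5′ ends alone). It was 8.53% in the main fit, 12.9% with limma and 21.2% with DESeq2. Protection was lost at Gm1572 with annotated neighbours left out (edgeR adjusted p = 0.0503) and at Cm2948 from 3′ ends alone. The ends differed at 6 of 53 sites with the library as a block, at 3 without the replicate block (edgeR), at 13 with limma and at 4 with DESeq2. With 2 neighbours, 2 of 52 sites passed with stronger and 5 with weaker protection from 3′ ends. Of all nucleotides, 10.2% passed with stronger and 9.41% with weaker protection from 3′ ends in the main fit. Without the block these shares were 7.38% and 7.36%, with limma 10.4% and 9.25%, and with DESeq2 10.3% and 9.53%. They were 5.68% and 5.56% with 2 neighbours. The calls lost without the block were at Gm1572, Cm2197 and Cm2959, DESeq2 lost Cm2197 and Cm2959, and 2 neighbours lost Gm1572. Calls gained with 2 neighbours were at Um578, Gm867 and Am2256 (edgeR adjusted p = 0.0375, 0.00572 and 0.0165). With 2 neighbours the difference at Cm2197 was 0.51 on the log2 scale, against -1.74, and the cause was not tested. Leaving out a library leaves the fits no residual degrees of freedom, so they were not run. No paired analysis between groups was possible because WT alone is described.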
